A study of Mus musculus with 6 samples.

Results

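The transcripts of 40 mouse genes of base excision repair, strand-break repair and double-strand break repair were followed in 3T3 fibroblasts that express human poly(ADP-ribose) glycohydrolase (hPARG). The genes were taken by name from the deposited gene table, which lists 41819 genes, and were sorted by role into 11 DNA glycosylases, 10 genes of single-strand break repair, 8 of end joining, 5 of double-strand break signalling and 6 of homologous recombination. All 6 samples came from a single clone of 3T3 cells, an albino Swiss mouse embryo fibroblast line, in which a lentiviral cassette with the TetOne promoter drives human PARG cDNA together with the fluorescent protein mClover3, which the labels call cleavable and the methods describe as made from the same transcript through an IRES, and all were kept under puromycin. The 3 control dishes received no doxycycline, and the 3 hPARG dishes received 500 ng/ml doxycycline for 72 h, so that effects of hPARG and of doxycycline itself cannot be told apart. The labels speak of wells of a 6-well plate, but each culture is called a dish here, after the methods. The dishes were split from 1 clone, so the spread between them, on which the tests rest, does not include a spread between clones.

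Base excision repair begins with a DNA glycosylase, which recognises particular damaged or mispaired bases and cuts them from the sugar. The site left behind is opened by an AP endonuclease, refilled by DNA polymerase beta and sealed by ligase III on the scaffold protein XRCC1. Double-strand breaks are rejoined directly by end joining or copied from the sister chromatid by homologous recombination, and the chromatin around them is marked by phosphorylated histone H2AX. Poly(ADP-ribose) is made by PARP1 and other PARP enzymes at DNA breaks, serves as a landing site for proteins such as XRCC1 and APLF, and is removed by PARG.

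Poly(A) RNA was sequenced, and the deposited counts summed to between 21619908 and 25263818 per dish. For comparisons between dishes the counts were scaled to library size with TMM normalization (CPM). Levels were compared between genes on the deposited RPKM, which is counts scaled to gene length and library size. After edgeR's filter on low counts 11509 genes were tested, among them 39 of the 40 repair genes. A log2 fold change is hPARG against control throughout, an FDR is a Benjamini-Hochberg adjusted p over all tested genes in edgeR's quasi-likelihood test, and the intervals are 95% intervals from the same fit. In a principal component analysis of log2 CPM, on the component with the most variance (42%), the dishes numbered 2 of both groups lay at 21.6 and 24.7 and the other 4 dishes between -27.4 and -3.17, and values without these dishes are given where a result rests on them. Of 10 fibroblast markers 10 were tested, led by Vim with 1548 RPKM and S100a4 with 1389 RPKM, whereas 2 of 6 leukocyte markers, 1 of 4 endothelial and 0 of 4 epithelial markers passed the filter, and Adgre1 and Cd3e were at 0 counts in every dish. Of the fibroblast markers 9 of 10 had a log2 fold change above 0, with a median of 0.23, and 4 (40%) had an unadjusted p under 0.05, against 3.95% of all tested genes, while 0 passed the FDR. Their part in the results below was not tested. The human transgene has no row of its own and was not analysed here.

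None of the 39 tested repair genes differed between hPARG-expressing and control cells at an FDR of 0.05, and each of them had an FDR of 0.999. Over all tested genes, 10 (0.0869%) passed that FDR, and each of these differed by more than 2-fold. DESeq2 and edgeR's likelihood ratio test also called 0 repair genes, where 0.284% and 0.565% of all genes they tested passed the FDR. At an unadjusted p under 0.05 there was 1 repair gene, H2afx, or 2.56% of the 39, against 455 of all tested genes (3.95%), and DESeq2 gave 1 as well, against 2.73% of all genes it tested. The log2 fold changes of the repair genes lay between -0.17 (Apex2) and 0.23 (H2afx), 16 above 0 and 23 below, with a median of -0.035 beside a median of 0.0038 over all tested genes. Every one of the 39 intervals lay within 2-fold in either direction, as did those of 90.8% of all tested genes. The intervals of 36 repair genes (92.3%) lay within 1.5-fold, as did those of 71.1% of all tested genes. The wider intervals belonged to Nhej1 (-0.77 to 0.52), Atm (-0.71 to 0.49) and Brca2 (-0.62 to 0.75). The values of the 2 groups did not overlap for 3 repair genes (7.69%), which are H2afx (higher) and Apex2 and Xrcc5 (lower), against 9.62% of all tested genes (3.61% higher and 6.00% lower). Of all tested genes without overlap, 37.6% were higher in hPARG cells with TMM and 24.7% with scaling to library size alone, under which Tdp2 took the place of Xrcc5. Without control dish 2 the repair genes without overlap numbered 7 and without hPARG dish 2 they numbered 9, against 23.7% and 20.9% of all tested genes, and there were 5 (12.8% of the 39) without control dish 3, against 15.5% of all tested genes, and 5 without hPARG dish 3, against 14.7%. The medians of all repair genes and of each role group given below changed sign when single dishes were left out.

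**Figure D1:**
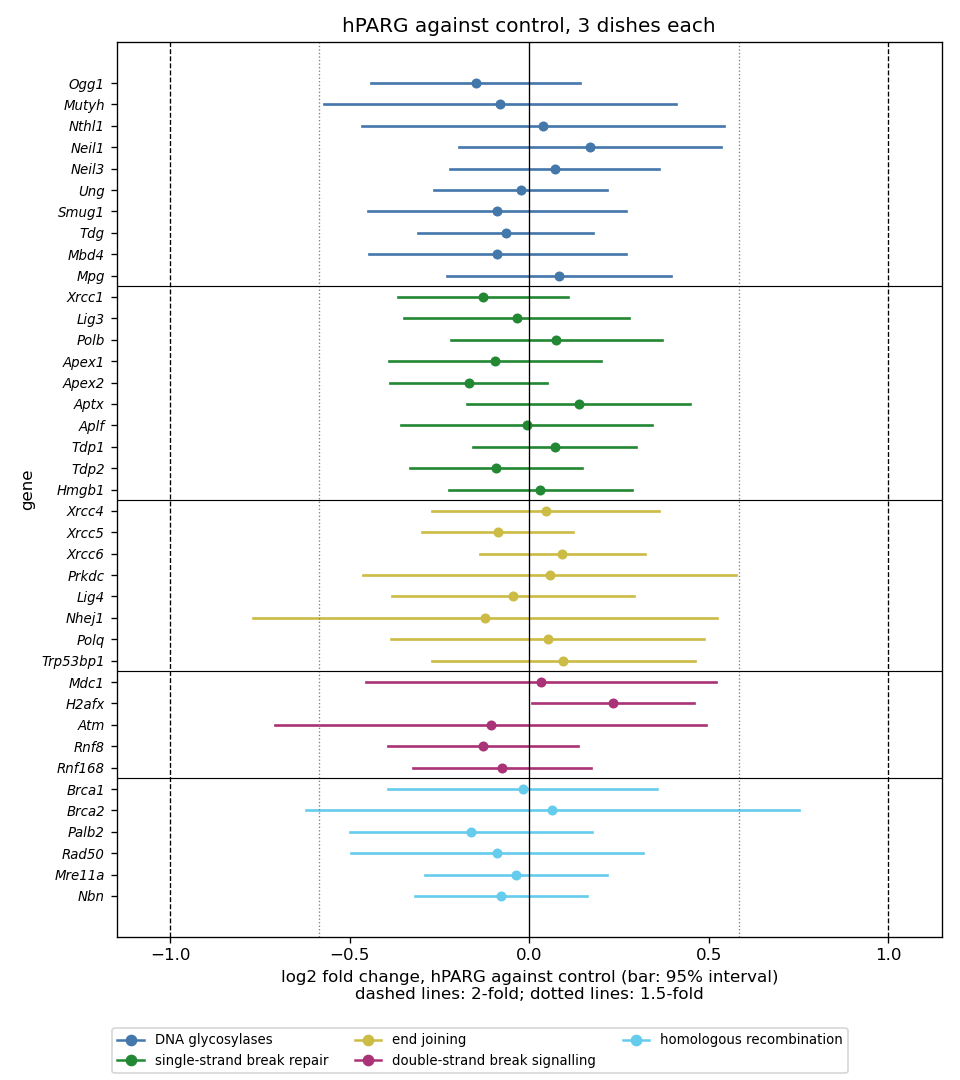
Log2 fold changes of the 39 tested repair genes, hPARG against control, with 3 dishes per group. Points are fitted values, bars 95% intervals, colours role groups, dashed lines 2-fold and dotted lines 1.5-fold; every bar stays inside the dashed lines, only those of Nhej1, Atm and Brca2 cross a dotted line, and the bar of H2afx alone lies wholly on one side of 0.

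Many of these genes start close to another gene that is transcribed in the opposite direction. In GENCODE M21 a start on the other strand lay from 1000 bases upstream to 200 bases downstream of the start of 18 of the 40 genes (45%). The start of a gene is here its outermost annotated start, which can differ from the RefSeq start. Such a start was also found for 2286 of the 11509 tested genes (19.9%) and for 2776 of 22028 protein-coding genes (12.6%). The neighbour is itself protein-coding for 13 of the 18. RefSeq promoter windows of GRCm38.p6, from 250 bases before to 50 after the start, matched 32 of the 40 genes. The stretches below are the shared start regions of 7 such pairs, shown because the values of both genes of each pair are compared further on. Each is written 5′ to 3′ on the strand of the repair gene, and the capitals run from the neighbour's annotated start to the RefSeq start of the repair gene, with 20 flanking bases in lower case on either side.
Mutyh and Toe1: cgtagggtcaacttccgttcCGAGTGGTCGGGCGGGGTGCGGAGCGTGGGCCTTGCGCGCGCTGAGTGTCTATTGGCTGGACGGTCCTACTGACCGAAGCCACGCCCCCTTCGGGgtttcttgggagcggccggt
Nthl1 and Tsc2: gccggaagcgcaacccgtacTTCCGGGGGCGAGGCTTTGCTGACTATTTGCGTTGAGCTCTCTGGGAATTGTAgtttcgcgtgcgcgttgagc
Apex1 and Osgep: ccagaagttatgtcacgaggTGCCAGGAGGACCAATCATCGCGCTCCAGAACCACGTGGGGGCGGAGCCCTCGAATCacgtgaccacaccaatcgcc
Tdp1 and Efcab11: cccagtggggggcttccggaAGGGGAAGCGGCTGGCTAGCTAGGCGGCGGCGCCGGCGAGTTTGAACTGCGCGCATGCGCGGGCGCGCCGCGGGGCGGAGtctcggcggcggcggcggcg
Lig4 and Abhd13: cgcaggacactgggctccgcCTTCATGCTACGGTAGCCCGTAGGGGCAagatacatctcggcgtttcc
Palb2 and Dctn5: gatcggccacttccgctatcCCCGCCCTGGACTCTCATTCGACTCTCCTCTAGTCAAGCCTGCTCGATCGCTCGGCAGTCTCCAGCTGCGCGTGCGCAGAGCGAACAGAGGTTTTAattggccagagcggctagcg
Brca1 and Nbr1: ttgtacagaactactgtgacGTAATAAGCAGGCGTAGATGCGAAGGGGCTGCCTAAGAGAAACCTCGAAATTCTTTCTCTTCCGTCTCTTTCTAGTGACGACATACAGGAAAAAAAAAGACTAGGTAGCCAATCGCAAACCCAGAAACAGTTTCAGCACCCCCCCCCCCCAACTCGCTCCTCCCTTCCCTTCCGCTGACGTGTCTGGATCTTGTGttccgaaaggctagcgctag

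The stretches lie at chr4:116807620-116807754 for Mutyh, chr17:24632610-24632702 for Nthl1, chr14:50924873-50924969 for Apex1 and chr12:99884419-99884538 for Tdp1 on the plus strand, and at chr8:9977660-9977727 for Lig4, chr7:122132926-122133061 for Palb2 and chr11:101551935-101552169 for Brca1 on the minus strand of GRCm38.p6. The interval between the starts, counting both start bases, was thus 28 bases long for Lig4 and Abhd13 and 195 bases long for Brca1 and Nbr1, the extremes among these 7. Short motifs were searched on both strands of the 32 windows. CCAAT was found in 20 windows (62.5%) and in 38.7% of the windows of tested genes, and GGGCGG in 21 (65.6%) and in 63.4%. The core motif of NRF1 was found in 6 windows (18.8% against 10.3%), among them those of Tdp1, Lig4, Atm and Palb2. An E2F motif, TTTCCCGC or TTTGGCGC, was found in 3 (9.38% against 2.93%), those of Xrcc6, Mdc1 and Brca2. The core motif of NF-kB was found in 0 of the 32 windows and in 0.396% of the windows of tested genes. These are matches of letters, without a test.

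The 39 genes covered a wide range of levels. Their mean RPKM over the 6 dishes ran from 1.25 for Mbd4 to 245.7 for Hmgb1, a ratio of 196, and 19 of the 39 lay above the median of all tested genes (8.21). Hmgb1, which encodes an abundant DNA-bending chromatin protein that also acts in base excision repair, was followed by Apex1 with 75.1 RPKM and H2afx with 37.1 RPKM. In the order of levels, 4 of the 38 neighbouring pairs had ranges over the 6 dishes that did not overlap, namely the 3 steps below Hmgb1, Apex1 and H2afx and the step from Brca1 (8.39) to Tdg (6.20). Neighbours elsewhere in the order overlapped. The order of Xrcc5, Rnf168 and Ung, for example, with means of 18.4, 17.8 and 17.8 RPKM, cannot be read from these dishes. Reads that match several places were kept by the mapping, so the level of a gene with near-identical copies elsewhere, as Hmgb1 has, is uncertain.

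**Figure D2:**
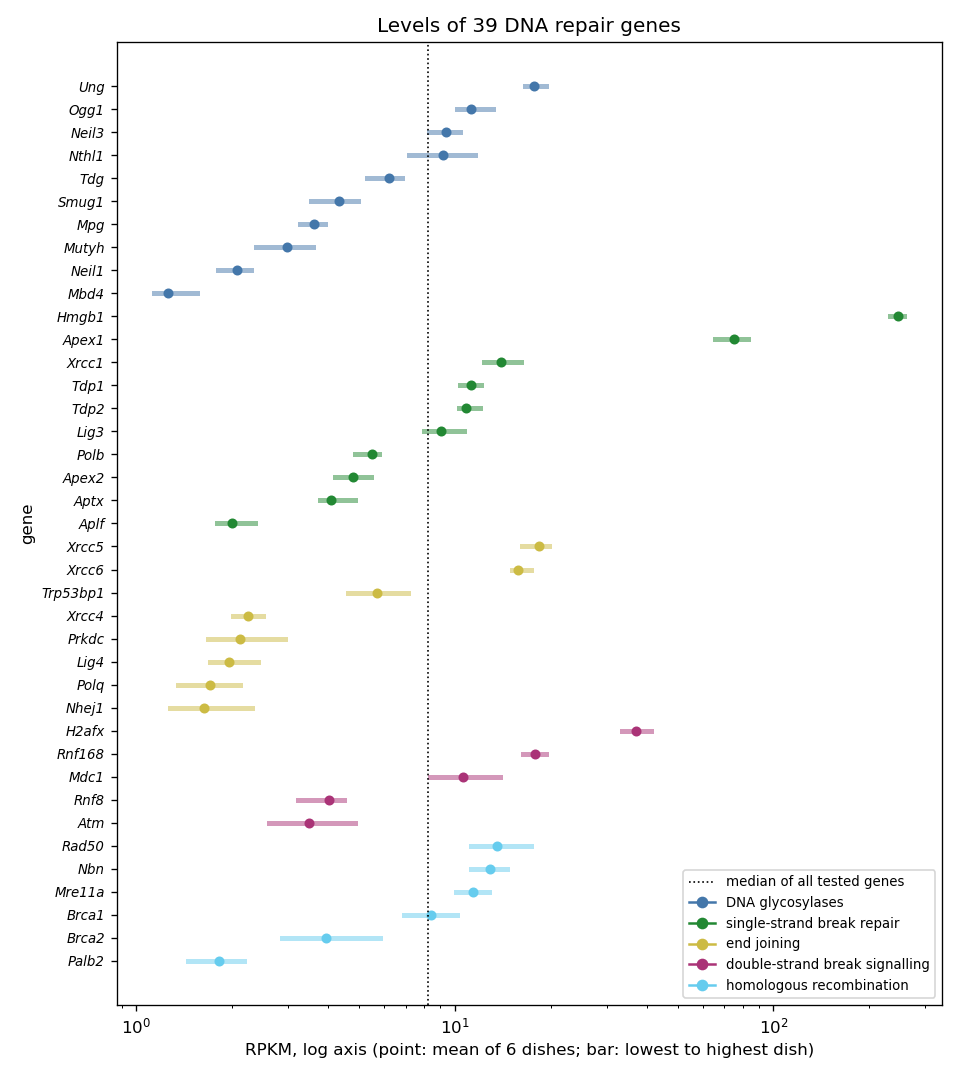
RPKM of the 39 tested repair genes on a log axis, by role group. Points are means of 6 dishes, bars run from the lowest to the highest dish, and the dotted line is the median of all tested genes (8.21); Hmgb1, Apex1 and H2afx stand apart at 245.7, 75.1 and 37.1.

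Among the DNA glycosylases, 10 of 11 were tested and 0 passed the FDR. Their median log2 fold change was -0.045, with 4 above and 6 below 0. Neil2, which removes oxidised bases from single-stranded and bubble DNA, had 0 counts in all 6 dishes, and the floor of 3 counts in a dish is worth 0.119 to 0.139 CPM. That floor covers counting error only. The highest level belonged to Ung, the main uracil-DNA glycosylase, with 17.8 ± 1.02 RPKM (SD, n = 6). Its CPM was 53.0, 45.2 and 52.2 in control dishes and 51.8, 48.0 and 48.2 in hPARG dishes. The groups overlapped, and the log2 fold change was -0.024 with an interval of -0.26 to 0.22. Mbd4, which removes thymine or uracil opposite guanine at methylated CpG sites, was lowest among the tested glycosylases, with 1.25 ± 0.149 RPKM (SD, n = 6). Its CPM was 8.74, 6.41 and 7.16 in control dishes and 6.60, 6.84 and 7.57 in hPARG dishes, so control dish 1 was the highest of the 6 and control dish 2 the lowest.

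Neil1, another glycosylase for oxidised bases, had the largest difference of the group. It had 3.90, 3.53 and 4.48 CPM in control dishes and 4.35, 4.62 and 4.40 CPM in hPARG dishes. Control dish 3 lay within the hPARG range, and the log2 fold change was 0.17 (standard error 0.158, interval -0.20 to 0.54). Ogg1, which removes 8-oxoguanine, had 18.8, 20.002 and 24.1 CPM in control dishes and 19.99, 17.8 and 18.9 CPM in hPARG dishes. This was the smallest p of the glycosylases, 0.269 before adjustment in edgeR, at a log2 fold change of -0.15 (interval -0.44 to 0.14), and control dish 3 was the highest dish. Exons of Camk1 on the other strand cover 10.6% of the Ogg1 exon bases, and the sources used here do not say whether counting used strand. Nthl1, the endonuclease III homologue for oxidised pyrimidines, had 10.0, 8.09 and 14.0 CPM in control dishes and 11.6, 8.98 and 12.4 CPM in hPARG dishes. Dish 2 was the lowest of its group both times. Mutyh, which removes adenine paired with 8-oxoguanine, followed the same order of dishes, with 5.93, 4.52 and 7.02 CPM in control dishes and 5.59, 4.45 and 6.47 CPM in hPARG dishes. The remaining glycosylases (Neil3, Smug1, Tdg and Mpg) had levels between 3.60 RPKM for Mpg and 9.41 RPKM for Neil3, and log2 fold changes between -0.090 (Smug1) and 0.084 (Mpg). For Mpg, the 3-methyladenine glycosylase, 35.7% of the exon bases are shared with Nprl3 on the other strand.

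In single-strand break repair all 10 genes were tested, 0 passed the FDR, and the median log2 fold change was -0.021 with 4 above and 6 below 0. Apex2, a second AP endonuclease with a strong 3′ exonuclease, differed most. Its CPM was 42.5, 44.6 and 42.0 in control dishes and 36.0, 39.6 and 39.2 in hPARG dishes. All 3 hPARG dishes were below all 3 control dishes, and the log2 fold change was -0.17 (standard error 0.094, interval -0.39 to 0.049), with an unadjusted p of 0.111 in edgeR and an FDR of 0.999. Hmgb1 had 1216, 1070 and 1215 CPM in control dishes and 1198, 1126 and 1251 CPM in hPARG dishes, with dish 2 the lowest of each group and a log2 fold change of 0.030 (interval -0.22 to 0.29). Aplf, a poly(ADP-ribose)-binding histone chaperone, had the lowest level of the group, 1.99 ± 0.257 RPKM (SD, n = 6). It had 6.63, 8.13 and 6.83 CPM in control dishes and 6.51, 8.16 and 6.79 CPM in hPARG dishes, and here dish 2 was the highest of each group.

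The core genes of this pathway had intervals on both sides of 0. Apex1, the main AP endonuclease, had 127.0, 103.7 and 130.4 CPM in control dishes and 121.5, 99.9 and 116.6 CPM in hPARG dishes, with a log2 fold change of -0.095 (interval -0.39 to 0.20). Exons of Pip4p1 on the other strand cover 61.7% of its exon bases, so part of its count may belong there. Xrcc1 had a log2 fold change of -0.13 (interval -0.37 to 0.11), Lig3 one of -0.035 (interval -0.35 to 0.28) and Polb one of 0.076 (interval -0.22 to 0.37). For Lig3, 25.1% of the exon bases are shared with Rffl on the other strand. Aptx, which clears adenylate groups from aborted ligations, had a log2 fold change of 0.14 (interval -0.17 to 0.45). Tdp1 and Tdp2, which release topoisomerases trapped on DNA ends, had values of 0.071 and -0.092.

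Of the 8 end-joining genes 0 passed the FDR, and their median log2 fold change was 0.049, with 5 above and 3 below 0. The Ku subunits Xrcc5 (Ku80) and Xrcc6 (Ku70) had the highest levels, 18.4 and 15.7 RPKM, while the other 6 lay between 1.64 and 5.71 RPKM. Xrcc5 had 52.8, 52.7 and 52.8 CPM in control dishes and 50.7, 51.3 and 46.9 CPM in hPARG dishes. Each hPARG dish was below each control dish, by a log2 fold change of -0.088 (standard error 0.091, interval -0.30 to 0.12; unadjusted p of 0.361 in edgeR, the smallest of the group). Its partner Xrcc6 had a log2 fold change of 0.092 (interval -0.14 to 0.32). Nhej1, which encodes the XLF protein that bridges DNA ends, had the lowest level and the fewest counts, 37, 59 and 40 in control dishes and 40, 36 and 45 in hPARG dishes. Control dish 2 was the highest and the other 5 dishes lay together, and the log2 fold change was -0.12 (interval -0.77 to 0.52). Without both dishes numbered 2 it was 0.24 (standard error 0.382). Prkdc, the catalytic subunit of the DNA-dependent protein kinase, had 25.9, 34.5 and 24.9 CPM in control dishes and 23.4, 39.9 and 25.4 CPM in hPARG dishes, with dish 2 above the others of its group both times. The ligase complex of Lig4 and Xrcc4 had values of -0.046 and 0.046, and Polq, the polymerase of microhomology-mediated joining, one of 0.051. Trp53bp1, which encodes 53BP1 and steers breaks towards end joining, had a value of 0.094 (interval -0.27 to 0.46), and 15% of its exon bases are shared with Tubgcp4 on the other strand.

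The 5 signalling genes had a median log2 fold change of -0.075, with 2 above and 3 below 0, and 0 passed the FDR. H2afx, the gene of histone H2AX, had 51.1, 48.5 and 54.9 CPM in control dishes and 62.7, 57.8 and 61.1 CPM in hPARG dishes, or 51.5 ± 3.23 and 60.5 ± 2.49 CPM (SD, n = 3 each). All 3 hPARG dishes were above all 3 control dishes. The log2 fold change was 0.23 (standard error 0.097), with an interval from 1.01-fold to 1.37-fold, an unadjusted p of 0.044 in edgeR and an FDR of 0.999. Exons of Gm44335 on the other strand cover 10.2% of its exon bases, and since H2AX transcripts are known with and without a poly(A) tail, the poly(A)-selected libraries bear on the first form. Without both dishes numbered 2 its log2 fold change was 0.23 (standard error 0.094, unadjusted p = 0.031 in edgeR, FDR = 0.642). With single dishes left out the unadjusted p in edgeR ran from 0.047 to 0.124, and it was above 0.05 without control dish 1 or 2 and without hPARG dish 1 or 3. Atm, the kinase that phosphorylates H2AX at breaks, had the lowest level of the group, 3.47 ± 1.02 RPKM (SD, n = 6). It had 36.7, 51.1 and 30.5 CPM in control dishes and 29.6, 50.3 and 29.8 CPM in hPARG dishes, and dish 2 was the highest of each group. Mdc1, which binds phosphorylated H2AX, had a log2 fold change of 0.032 (interval -0.46 to 0.52), and the ubiquitin ligases Rnf8 and Rnf168 had values of -0.13 and -0.075. Rnf8 shares 13.2% of its exon bases with Gm28043 on the same strand.

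Of the 6 homologous recombination genes 0 passed the FDR, and their median log2 fold change was -0.058, with 1 above and 5 below 0. The subunits of the MRN complex, which holds and trims broken ends, had the highest levels of the group, 13.6 RPKM for Rad50, 12.9 for Nbn and 11.4 for Mre11a. Rad50 had 74.1, 93.6 and 67.1 CPM in control dishes and 64.7, 90.1 and 65.6 CPM in hPARG dishes, with dish 2 the highest of each group. Its log2 fold change was -0.091, and those of Nbn and Mre11a were -0.078 and -0.037. Palb2, which links BRCA1 to BRCA2, was lowest, with 1.81 ± 0.251 RPKM (SD, n = 6), and had the smallest p of the group. It had 8.27, 8.99 and 7.40 CPM in control dishes and 6.33, 7.995 and 7.71 CPM in hPARG dishes. The groups overlapped, and the log2 fold change was -0.16 (interval -0.50 to 0.17, unadjusted p of 0.296 in edgeR). Brca1 had a log2 fold change of -0.018 (interval -0.39 to 0.36). Brca2, a mediator of strand exchange, had 36.1, 61.3 and 37.1 CPM in control dishes and 33.7, 66.9 and 39.8 CPM in hPARG dishes. Dishes 1 and 3 of both groups lay between 33.7 and 39.8 CPM and both dishes numbered 2 well above them. Homologous recombination works in the S and G2 phases of the cell cycle, and of 10 genes of cycling cells 10 were tested, 0 had an unadjusted p under 0.05 and the values lay between -0.19 for Cdc6 and 0.29 for Mki67, with a median of -0.068. Fewer cells of a kind and less RNA per cell cannot be told apart in these bulk libraries.

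**Figure D3:**
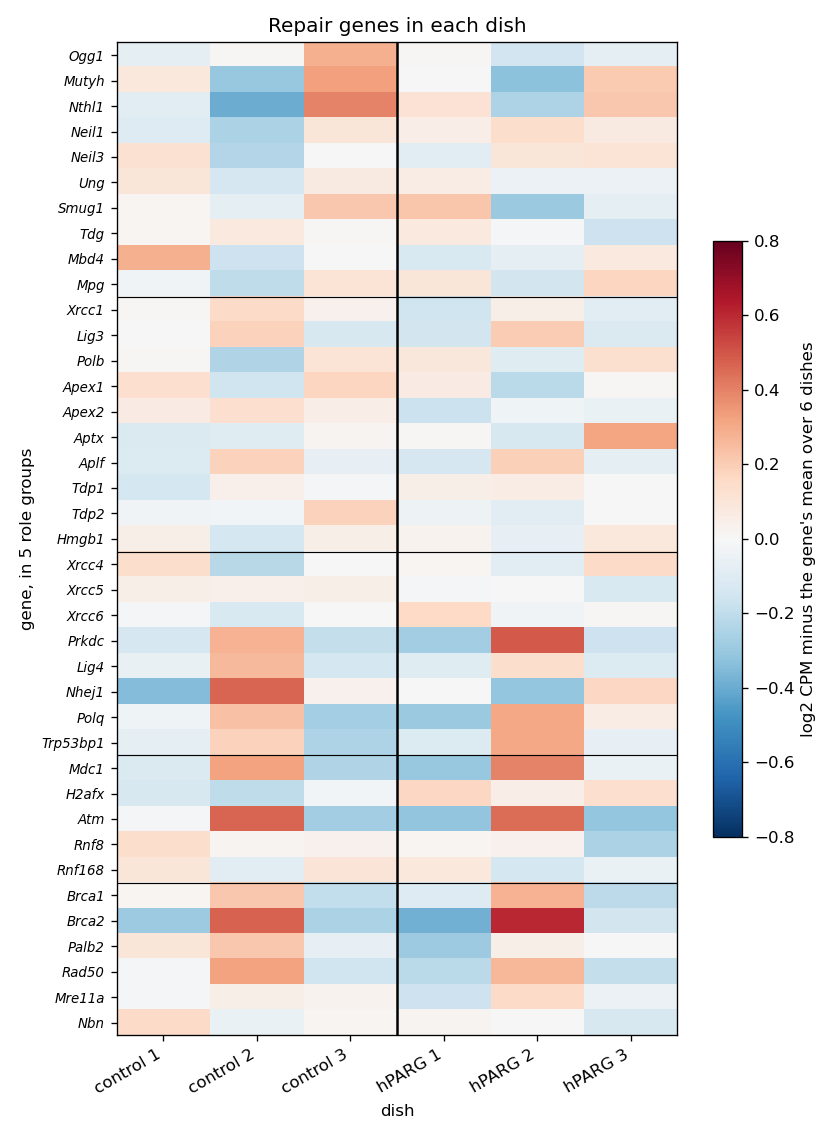
Log2 CPM of each of the 39 tested repair genes in each dish, minus the gene's mean over the 6 dishes, in 5 role groups. Red is above and blue below the mean; the columns of dish 2 stand out in both groups, red for Brca2, Atm, Mdc1 and Prkdc and blue for Nthl1 and Mutyh, whereas the row of H2afx parts by group, at 48.5 to 54.9 CPM without and 57.8 to 62.7 CPM with doxycycline.

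The dishes numbered 2 stood apart for the repair genes too. The deviation of a dish, taken as its log2 CPM minus the mean of its group, reached 0.49 and 0.58 for Brca2 in control and hPARG dish 2, 0.41 and 0.51 for Atm, and -0.36 and -0.27 for Nthl1. Brca2 was 1.67-fold and 1.82-fold above the mean of dishes 1 and 3 of its group. Exon length is the summed length of all annotated exons of a gene in GENCODE, with overlapping bases counted once. It can therefore exceed the length of the transcripts made in these cells. Across the 39 genes the deviation in dish 2 rose with exon length, with a Spearman rho of 0.59 for control dish 2 and 0.70 for hPARG dish 2. In the other dishes the deviation fell with exon length, with rho from -0.70 to -0.23. Across all tested genes rho was 0.53 and 0.52 in the dishes numbered 2, and from -0.51 to -0.25 in the others. The deviations of a group sum to 0 and the genes share their libraries, so these are descriptions.

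The genes were split by exon length into 3 sets of 13. In the longest set (6141 to 14164 bases), which holds Trp53bp1, Brca2, Prkdc, Rnf8, Atm and Polq, the median deviation was 0.21 and 0.26 in control and hPARG dish 2. In that set 11 of 13 genes were up in both, beside 68.1% of the tested genes of this length. In the shortest set (1118 to 4213 bases), which holds Nhej1, H2afx, Apex1, Neil1 and Ogg1, the median deviation was -0.16 and -0.12. In that set 9 of 13 genes were down in both and 0 up in both, beside 58.1% and 22.0% of the tested genes of this length. In the middle set (4462 to 5927 bases) 6 of 13 genes were up in both and 6 down in both. Of the tested genes of this length, 49.4% were up in both and 31.6% down in both. By role, 7 of the 10 tested glycosylases were down in both dishes numbered 2 and 1 was up. Of the 6 homologous recombination genes 5 were up in both and 0 down. The median exon length is 4516 bases for the tested glycosylases and 6634.5 bases for the recombination genes. Among the glycosylases outside the shortest set, Ung, Mbd4 and Smug1 were down in both dishes numbered 2, Tdg was up in both and Neil3 changed sign. Whether the role counts follow exon length was not tested. After a correction for exon length and GC content within each dish, rho across the 39 genes was 0.084 and 0.16 in the dishes numbered 2. The correction was fitted on exon length in these same dishes, so a fall in rho is built into it.

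The standard error was smaller without both dishes numbered 2 in 25 of the 39 genes. These dishes were set aside because they stood apart in the same data, so a smaller spread without them follows in part from that choice. The median standard error of the 39 log2 fold changes was 0.135 with all dishes, 0.106 without both dishes numbered 2 and 0.115 after the correction, and for the longest 13 genes it was 0.158, 0.106 and 0.121. For the shortest 13 it was 0.128 with all dishes and 0.125 without both dishes numbered 2, and for the middle 13 it was 0.110 and 0.103. For Brca2 the standard error was 0.297, 0.107 and 0.189. Its log2 fold change was 0.064 with all dishes and 0.011 without both dishes numbered 2. For Atm the standard error was 0.259 with all dishes and 0.112 without these dishes, where the log2 fold change was -0.18 with an unadjusted p of 0.138 in edgeR.

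**Figure D4:**
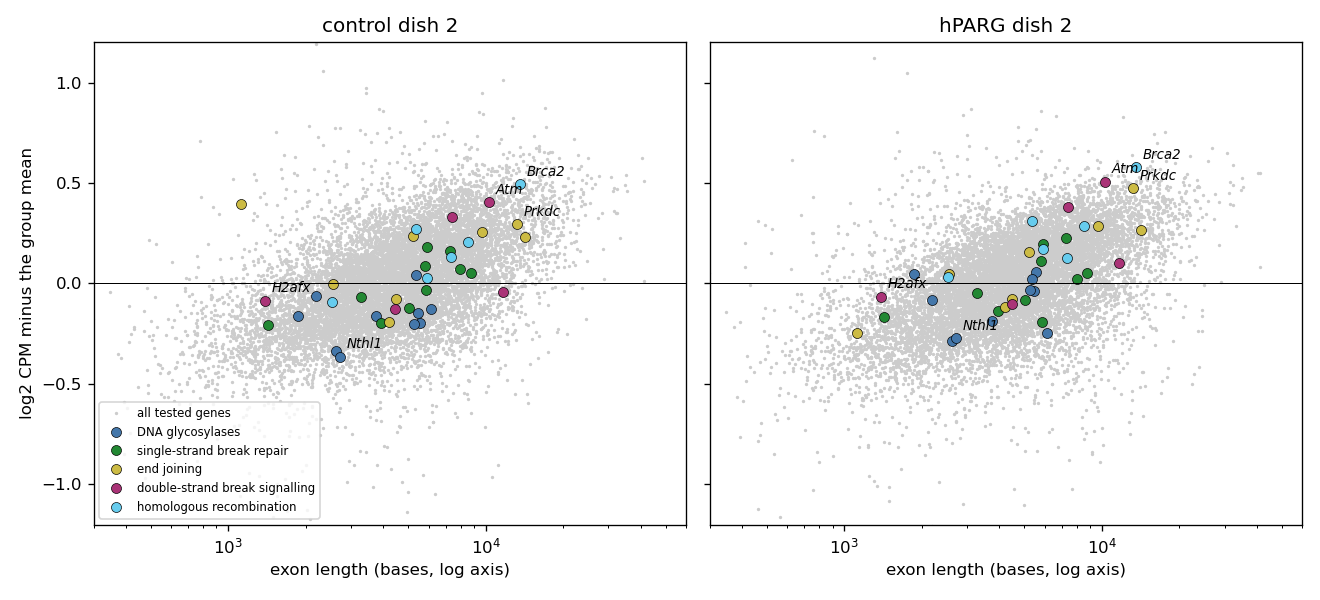
Deviation of dish 2 from its group mean (log2 CPM) against exon length in bases on a log axis, for the control (left) and the hPARG group (right). Grey dots are all tested genes within the plotted range and coloured points the 39 repair genes; Brca2 and Atm lie at the upper right of both panels (0.49 and 0.41 on the left, 0.58 and 0.51 on the right) and Nthl1 below 0 in both (-0.36 and -0.27).

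The neighbours that face the repair genes were compared in the same fit. Of the 18 neighbours 12 were tested, 0 passed the FDR, and their log2 fold changes lay between -0.24 and 0.16. Uspl1, which faces the outermost GENCODE start of Hmgb1 (chr5:149184489), was the 1 neighbour with an unadjusted p under 0.05 (0.038 in edgeR). Its log2 fold change was -0.24, while that of Hmgb1 was 0.030. The nearest RefSeq promoter window of Hmgb1 lies far from that start, at chr5:149053008-149053307. By RefSeq, this pair therefore shares no start region. The repair gene and its neighbour had log2 fold changes of the same sign in 4 of the 12 pairs. In the dishes numbered 2, both genes of a pair deviated the same way in 6 pairs, opposite ways in 3, and in the other 3 one gene of the pair changed sign between the dishes. Brca1 and Nbr1 went the same way, with 0.21 and 0.24 in control dish 2 and 0.29 and 0.35 in hPARG dish 2. Both have a large exon length (8533 and 6871 bases). Mutyh and Toe1 did so in the other direction, with -0.34 and -0.32 in control dish 2 and -0.28 and -0.17 in hPARG dish 2. Both have a small exon length (2612 and 2979 bases). Nthl1 and Tsc2, whose starts bound the 53 capitals printed above, went opposite ways, -0.36 and 0.17 in control dish 2 and -0.27 and 0.31 in hPARG dish 2, and their exon lengths are 2718 and 9620 bases. Lig4 and Abhd13 also went opposite ways, 0.24 and -0.080 in control dish 2 and 0.16 and -0.17 in hPARG dish 2, at like exon lengths of 5202 and 5191 bases. Apex1 and Osgep were both down, -0.21 and -0.33 in control dish 2 and -0.17 and -0.18 in hPARG dish 2, although their levels differ, with 75.1 and 3.50 RPKM. Tdp1 and Efcab11 parted, 0.074 and -0.16 in control dish 2 and 0.024 and -0.12 in hPARG dish 2, whereas for Palb2 and Dctn5 the values were 0.13 and -0.16 in control dish 2 and 0.13 and 0.061 in hPARG dish 2.

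**Figure D5:**
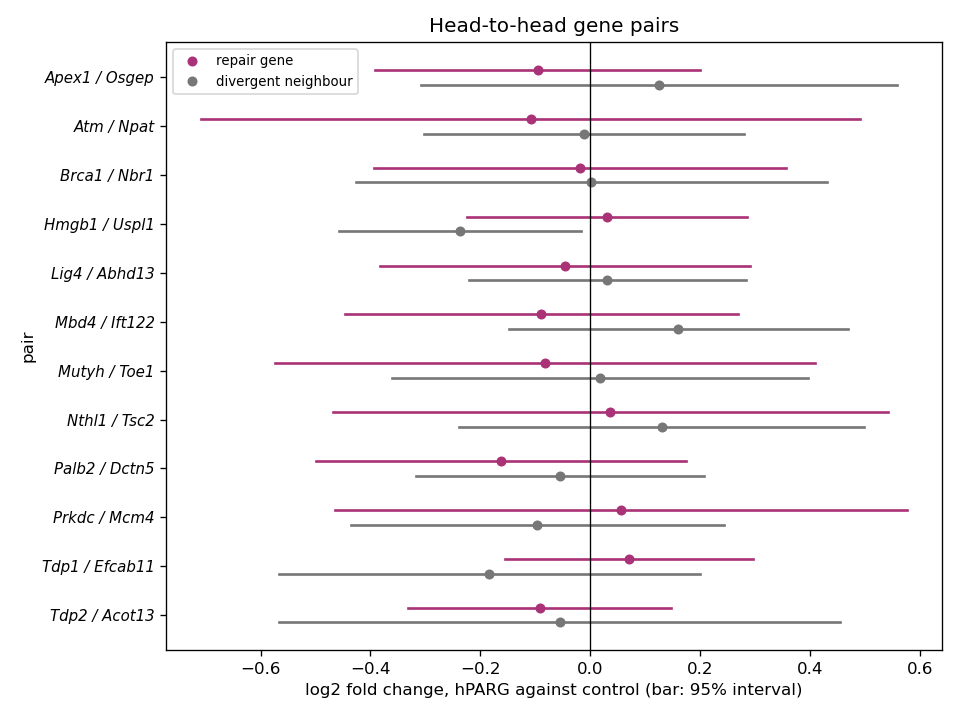
Log2 fold changes, hPARG against control, of 12 repair genes and of the genes that start next to them on the other strand, with 95% intervals. The intervals of both genes overlap in every pair, and Uspl1, at -0.24, has the one interval of this plot that excludes 0. Uspl1 faces only the outermost GENCODE start of Hmgb1, not its RefSeq promoter window.

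Further genes of the same pathways, 96 in all, were counted in 4 lists, and 93 of them were tested. Of these, 0 passed the FDR and 2 had an unadjusted p under 0.05 (2.15%), and their median log2 fold change was -0.044. DESeq2 also gave 0 and 2. In single-strand break repair the smallest p belonged to Fen1, the flap endonuclease (log2 fold change -0.20, unadjusted p of 0.095 in edgeR). In end joining it belonged to Poll, DNA polymerase lambda (-0.21, 0.075), and in signalling to Rad9a, a subunit of the 9-1-1 clamp (-0.25, 0.056). In homologous recombination it belonged to Rad54b, a DNA translocase, which had 25.9, 24.8 and 27.2 CPM in control dishes and 30.7, 33.2 and 31.2 CPM in hPARG dishes, without overlap. Its log2 fold change was 0.29 with an unadjusted p of 0.017 in edgeR and an FDR of 0.991. Rpa2, a subunit of the protein that coats single-stranded DNA, was the other gene under an unadjusted p of 0.05, with a log2 fold change of -0.34 and a p of 0.027 in edgeR, and it was named after its values were seen.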

How the data were processed

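RNA from 3 control and 3 hPARG dishes was enriched for poly(A), and libraries were sequenced. The authors aligned them in CLC Genomics Workbench against GRCm38 and its Ensembl genes, keeping reads with several hits. The authors deposited counts per gene as whole numbers without normalization. The authors also deposited RPKM, which their software divided by gene length and library total, and it was used here only for levels between genes. The deposited TPM and CPM columns and the authors' own fold changes, p-values and FDR were not used. All 41819 identifiers were found in GENCODE M21 (Ensembl 96).

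Counts were filtered with filterByExpr (minimum count 10), normalized by TMM and tested by quasi-likelihood (glmQLFTest) in edgeR 4.0.16, under R 4.3.3 with limma 3.58.1, with a threshold of FDR 0.05, and of 2-fold where a fold was asked for. A standard error is the size of the log2 fold change over the root of its F statistic. Deviations used log2 CPM with a prior count of 2. Rank correlations used scipy 1.17.1. Before use, some of the fits were run on simulated data holding 200 changed genes. These were the quasi-likelihood fit, alone, with the replicate block or with the correction, the likelihood ratio test and DESeq2. The other fits were not run on them, and the simulated counts held no deviation of the dishes numbered 2. The changes set in the 200 genes were larger than the log2 fold change of any repair gene. Recovery of differences as small as those of the repair genes was therefore not checked. Totals of 21619908 to 25263818 counts and 3 dishes per group limit precision, and with 3 dishes against 3 the smallest p of an exact permutation test is 0.1.

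Values in every dish were given, per role group, for the genes with the highest and lowest level, the largest difference and the smallest p, for genes whose groups did not overlap and for those with the largest and smallest deviation in the dishes numbered 2. Other genes named with their dishes (Mutyh, Apex1 and Prkdc), and the 7 pairs whose sequences are shown, were chosen after values were seen. From each list of further pathway genes the gene with the smallest p was named, and some genes of the lists are not reported here by name. The genes, the lists and the alternatives were chosen with earlier results of these data known. The alternatives were DESeq2 1.42.0, the likelihood ratio test, RLE size factors, library size only, other filters, leaving out dishes, the replicate number as a block, and offsets per dish from splines (4 degrees of freedom) on exon length and GC content.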

Additional observations from a re-analysis of the deposited data

How the results depend on the processing

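No repair gene passed the FDR under any of the 16 alternatives, and the lowest FDR of a repair gene was 0.0653 (H2afx, replicate block with the correction for exon length and GC content). Of 624 values of single repair genes under these alternatives 54 changed sign, and none of them passed the FDR. With 3 dishes per group, a difference whose printed interval includes 0 could not be told from 0. For Nhej1 (36 to 59 counts per dish) depth limits the precision as well. The cause was not tested for any of the changes below, except that leaving out dishes leaves fewer samples.

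The count of repair genes at an unadjusted p under 0.05, 1 in the report, was 0 with the likelihood ratio test (4.14% of all tested genes), with library size only (4.08%) and with no filter on low counts (3.11%). It was 2 with the replicate block, where 17.9% of all tested genes had such a p, and 4 with the block and the correction, where 18.9% did. When single dishes were left out it was between 0 and 1, with 0 without control dish 1 or 2 and without hPARG dish 1 or 3, against 2.25% to 4.95% of all tested genes. The count without overlap between groups, 3 in the report, was 5 with the correction (12.6% of all tested genes) and 13 without both dishes numbered 2, when 35.4% of all tested genes did not overlap. With 1 dish left out it was between 4 and 9, with 7 without control dish 2 (23.7% of all) and 9 without hPARG dish 2 (20.9% of all). H2afx and Apex2 were among the genes without overlap under each of these. Over all genes, the 10 calls became 30 with the likelihood ratio test, 16 with no filter, 19 with the correction or without both dishes numbered 2, 22 with DESeq2, and 25 with the block and the correction. When single dishes were left out they numbered between 3 (without hPARG dish 1) and 13 (without control dish 2).

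With library size only the median log2 fold change was -0.062 for all repair genes and -0.049 for single-strand break repair. With each dish left out the medians ran from -0.073 to 0.023 for all repair genes, from -0.11 to 0.038 for glycosylases, from -0.044 to 0.027 for single-strand break repair, from -0.078 to 0.097 for end joining, from -0.18 to 0.12 for signalling and from -0.20 to 0.018 for homologous recombination, so leaving out 1 dish turned the sign of every one of these medians. The dishes that did so were hPARG dish 1 for all repair genes and for single-strand break repair, control dishes 1 and 3 and hPARG dish 2 for glycosylases, control dish 3 and hPARG dish 2 for end joining, control dish 2 and hPARG dishes 1 and 3 for signalling, and control dish 2 and hPARG dish 1 for homologous recombination.

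Without both dishes numbered 2 the log2 fold changes that turned were those of Neil3 (-0.048), Prkdc (-0.056), Lig4 (0.0011) and Nhej1 (0.24). With the correction they were those of Prkdc (-0.0047) and Mdc1 (-0.0069), and with the replicate block and the correction those of Prkdc (-0.012), Mdc1 (-0.014) and Brca2 (-0.0059). With 1 dish left out 22 of the 39 turned at least once, with these ranges: Aplf -0.12 to 0.089, Atm -0.41 to 0.12, Brca1 -0.18 to 0.091, Brca2 -0.29 to 0.36, Hmgb1 -0.028 to 0.069, Lig3 -0.16 to 0.051, Lig4 -0.13 to 0.083, Mbd4 -0.19 to 0.052, Mdc1 -0.18 to 0.22, Mre11a -0.13 to 0.033, Mutyh -0.23 to 0.070, Neil3 -0.022 to 0.16, Nhej1 -0.30 to 0.11, Nthl1 -0.13 to 0.27, Polb -0.017 to 0.15, Polq -0.10 to 0.20, Prkdc -0.22 to 0.22, Rad50 -0.27 to 0.058, Smug1 -0.24 to 0.026, Trp53bp1 -0.052 to 0.22, Ung -0.093 to 0.024 and Xrcc4 -0.046 to 0.14.

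Dishes carry the numbers 1 to 3 in the labels. Deviations from the group means correlated across genes with r of 0.0963, 0.61 and 0.168 between dishes of one number, and control dishes 1 and 3 correlated best with hPARG dishes 3 and 1, so only the number 2 stands out and the numbers were not taken to pair the dishes. With the replicate block, 23 genes passed the FDR and 2-fold and 330 the FDR alone, 0 of them repair genes, 2 repair genes (H2afx and Apex2) had an unadjusted p under 0.05 against 17.9% of all tested genes, and the FDR of H2afx was 0.0744. Among the further pathway genes, Rpa2, named after its values were seen, passed the FDR with the block.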
